A study of Homo sapiens with 9 samples.

Results

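The genes of antigen presentation by MHC class II molecules were followed in HNT34, a human acute myeloid leukemia (AML) cell line with high expression of EVI1, after knockdown of EVI1 with short hairpin RNAs (shRNAs). The set is a list of 10 named genes, namely HLA-DRA, HLA-DRB1, HLA-DPA1, HLA-DPB1, HLA-DMA, HLA-DMB, HLA-DQA1, HLA-DQB1, CD74 and CIITA, looked up by symbol in a table of 16612 genes. Of these, 8 were found and all 8 passed the filter on low counts, whereas HLA-DQA1 and HLA-DQB1 are not listed in the table used here and were not analysed. Cells carried a lentiviral vector with a puromycin marker and a hairpin that was either non-targeting (NT) or directed at EVI1 (sh#16 or sh#87). Their RNA was taken 3 days after selection, in 3 libraries for each hairpin. All groups are derived from 1 cell line, and all, NT included, carry the vector and were selected for it. The labels do not say whether the libraries of a group come from separate cultures, so p-values measure only the spread between these libraries.

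MHC class II molecules are pairs of an alpha and a beta chain, such as HLA-DRA with HLA-DRB1 or HLA-DPA1 with HLA-DPB1, that show peptides from endosomes to CD4+ T cells. In the endoplasmic reticulum the pairs assemble on CD74, the invariant chain, which blocks the groove and guides them to endosomes, where HLA-DM (HLA-DMA with HLA-DMB) exchanges the remaining CD74 fragment for peptides. Transcription of these genes depends on CIITA, a coactivator that binds no DNA itself and is recruited by the factors RFX, NF-Y and CREB on the X and Y boxes of class II promoters. Class II molecules are constitutive on B cells and dendritic cells and are also found on myeloid progenitors and on many AML blasts, on which HLA-DR is a routine marker.

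Promoter letters that some of these genes share are shown first, because CIITA acts through the X and Y boxes. The promoters of HLA-DRA and CIITA were not among those searched. RefSeq promoters of GRCh38.p14, which run from 250 bases before to 50 bases after a gene start, were searched on both strands for an X box core, spelled ACNGATGA, and for the Y box core, spelled GATTGG. Both were found in HLA-DRB1 and HLA-DMA, on the strand of the gene and in the order X, then Y. In HLA-DMB the X letters were found, with no Y letters downstream of them on the same strand. The windows are printed 5′ to 3′ on the minus strand, which is the strand of each gene, and capitals mark the X letters on the left and, where present, the Y letters on the right.
HLA-DRB1, chr6:32589882-32589935: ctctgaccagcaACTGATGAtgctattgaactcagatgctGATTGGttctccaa
HLA-DMA, chr6:32953164-32953218: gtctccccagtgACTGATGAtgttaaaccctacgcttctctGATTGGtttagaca
HLA-DMB, chr6:32941071-32941124: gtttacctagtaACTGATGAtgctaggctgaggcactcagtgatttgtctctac
The X and Y letters stand 20 bases apart in HLA-DRB1 and 21 bases apart in HLA-DMA. The X letters begin at position -75 from the gene start in HLA-DRB1, at position -109 in HLA-DMA and at position -84 in HLA-DMB. Among all 35116 promoters of the table, the X letters occur in 795 (2.26%) and the Y letters in 5314 (15.1%). X letters followed by Y letters on the strand of the gene within 60 bases occur in 12 promoters (0.0342%), of which 4 belong to class II genes (HLA-DRB1, HLA-DRB5, HLA-DQB1 and HLA-DMA). The letters were chosen after the promoters of these genes had been read, so the shares describe how rare the letters are and test nothing. In CD74 the X letters occur once, on the opposite strand, and in HLA-DPA1 and HLA-DPB1 they were not found, which says only that these letters are not in these windows.

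Before the members are described, the libraries and the knockdown are given. The authors deposited estimated counts, and the libraries held between 17096170 and 43502389 of them. MECOM, the gene that encodes EVI1, had 504 ± 65.0 CPM in NT (TMM-normalized counts scaled to the library size, mean ± SD, n = 3), 145 ± 1.53 CPM with sh#16 and 107 ± 1.60 CPM with sh#87. Its log2 fold change was -1.81 with sh#16 and -2.23 with sh#87. The NT libraries varied more among themselves (biological coefficient of variation 24.9%) than the sh#16 (3.77%) and sh#87 libraries (6.97%). Mitochondrially encoded genes took 15.9%, 11.5% and 4.69% of the counts in NT replicates 1, 2 and 3, against 2.69% to 2.88% with sh#16 and 4.62% to 5.97% with sh#87. Of 8 stem and myeloid progenitor markers, 6 are in the table, MPO and CD38 being not listed. The 6 include MECOM, the targeted gene, so the knockdown itself lowers their sum. Their summed level was 1622 to 1770 CPM in NT, 627.9 to 641.4 with sh#16 and 358.8 to 366.4 with sh#87. With both shRNAs 4 of the 6 had an adjusted p of at most 0.01, each lower (66.7%). Of all genes tested, 59.8% passed in either direction and 29.7% passed and were lower. Not every marker had the order of the sum, since ANPEP had 269 CPM in NT, 284 with sh#16 and 139 with sh#87. Among the 6 markers, the stem cell antigen CD34 had 729 ± 54.8 CPM in NT, 116 ± 1.98 with sh#16 and 42.4 ± 1.08 with sh#87. The receptor KIT had 85.7 ± 1.65, 34.3 ± 0.880 and 27.7 ± 0.910 CPM in the same order.

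At the thresholds that the study's main text states for these data, a log2 fold change of 2 or more in either direction with an adjusted p of at most 0.01, 0 of 8 members were called with both shRNAs against NT in edgeR's quasi-likelihood test, where 15.4% of the 16312 genes tested were called. The counts were also 0 with sh#16 (12.8% of all genes called), with sh#87 (18.9%) and between the shRNAs (0.454%). DESeq2 and limma-voom gave 0 calls in each of these comparisons too, while 6, 7, 7 and 5 members, in the same order, had an unadjusted p below 0.05, as had 74.2%, 74.3%, 79.1% and 44.6% of all genes tested. The supplement of the study gives an adjusted p of at most 0.05 for the same comparison, and with that limit the counts were also 0. With 1 in place of 2 as the smallest log2 fold change, 2 members were called with both shRNAs (HLA-DRA and HLA-DPB1, against 38.2% of all genes), 1 with sh#16 (HLA-DPB1, against 34%), 3 with sh#87 (HLA-DRA, HLA-DPA1 and HLA-DPB1, against 43.8%) and 0 between the shRNAs (4.27%), each lower. These shares of all genes count both directions. At that limit 2797, 2527, 3239 and 253 of the 16312 genes tested were called lower, in the same order of comparisons. The largest change of a member was a log2 fold change of -1.67, that of HLA-DRA with sh#87. In what follows a gene is said to rise or fall where its adjusted p (Benjamini-Hochberg over all genes tested) was at most 0.01. By that rule, with both shRNAs, CIITA and HLA-DMB rose, HLA-DRA, HLA-DPA1 and HLA-DPB1 fell, and HLA-DRB1, CD74 and HLA-DMA did not pass. These 5 of 8 members (62.5%) stand beside 59.8% of all genes tested (30.1% higher and 29.7% lower), so that the share of class II genes that moved was near that of the whole table. That fit takes the 6 knockdown libraries as 1 group, so a difference between the shRNAs widens its spread. With the shRNAs averaged in a fit of 3 groups, CD74 (-0.39, adjusted p = 0.00289) and HLA-DMA (0.66, adjusted p = 6.72e-04) passed too. The share of all genes that passed in that fit was not counted. The comparisons of sh#16 and of sh#87 with NT share the NT libraries and are not independent of each other. RNA from whole cultures was measured, in which fewer cells expressing a gene and less RNA per cell cannot be told apart.

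**Figure D1:**
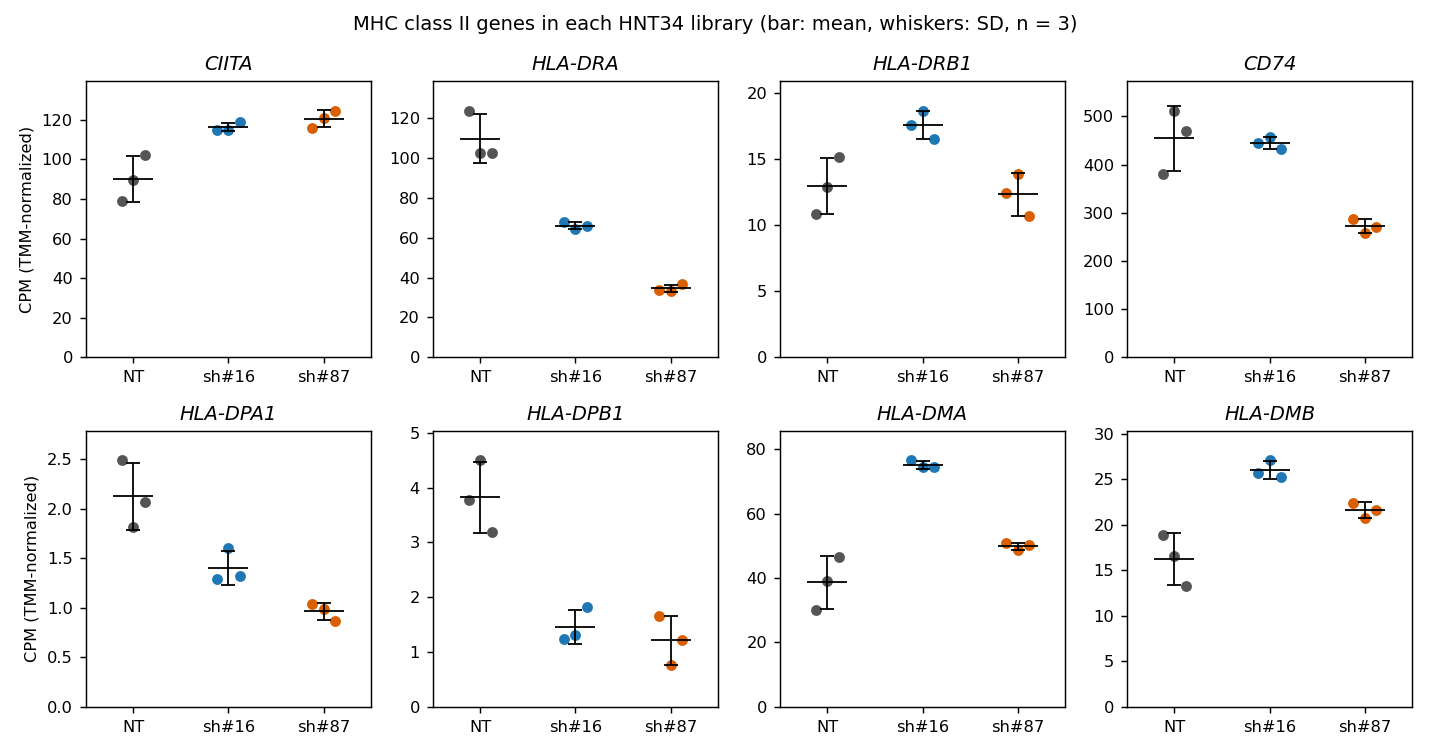
Level of each of the 8 class II genes in CPM (vertical axis, from 0) in the 3 NT (grey), 3 sh#16 (blue) and 3 sh#87 libraries (orange), with the mean (bar) and SD (whiskers). HLA-DRA stepped down from 109.6 to 66.1 and 34.6 CPM on average, HLA-DMA stood highest with sh#16, and CIITA was above every NT library in all 6 knockdown libraries.

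CIITA, the coactivator (chr16:10866206-10943021 in GRCh38.p14), was measured at 79.0, 89.5 and 102.3 CPM in NT replicates 1, 2 and 3. It stood at 115.1, 115.0 and 118.8 CPM with sh#16 and at 116.1, 120.7 and 124.7 CPM with sh#87. All knockdown libraries were above all NT libraries, and the sh#16 and sh#87 libraries overlapped. The log2 fold change was 0.39 with both shRNAs (SE 0.09, adjusted p = 0.00276), a level 1.31 times that of NT, and it was 0.36 with sh#16 (adjusted p = 0.00522) and 0.41 with sh#87 (adjusted p = 0.00213). Between the shRNAs it differed by 0.05 (SE 0.09, adjusted p = 0.682). The rise with both shRNAs did not pass without NT replicate 1 (log2 fold change 0.29, adjusted p = 0.0127) or without NT replicate 2 (0.38, adjusted p = 0.0157), so its call rests on the NT libraries, of which replicate 1 was lowest for CIITA and had the largest mitochondrial share.

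HLA-DRA, the alpha chain of HLA-DR (chr6:32439887-32445046), was the member with the clearest decrease. Its level was 123.8, 102.5 and 102.5 CPM in the NT libraries, 67.6, 64.5 and 66.1 CPM with sh#16, and 33.9, 33.2 and 36.5 CPM with sh#87. The 3 groups did not overlap, NT being highest and sh#87 lowest. With sh#16 the log2 fold change was -0.74 (SE 0.09, adjusted p = 5.63e-05), which left 60.1% of the NT level. With sh#87 it was -1.67 (SE 0.09, adjusted p = 2.61e-07), which left 31.4%. The sh#87 libraries were lower than the sh#16 libraries by a log2 difference of -0.93 (SE 0.09, adjusted p = 1.83e-04), and this difference and both decreases kept their calls in all 20 alternative settings. In the fit of both shRNAs as 1 group the log2 fold change was -1.13 (SE 0.25, adjusted p = 0.00236), and it did not pass without NT replicate 1 (-1.04, adjusted p = 0.0109).

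HLA-DRB1, the main beta chain that pairs with HLA-DRA (chr6:32578775-32589848), did not follow its partner. It was measured at 10.9, 12.9 and 15.2 CPM in NT, at 17.6, 18.7 and 16.5 CPM with sh#16 and at 12.5, 13.9 and 10.7 CPM with sh#87. The sh#16 libraries were above all others, and the sh#87 libraries overlapped with NT. The log2 fold change was 0.44 with sh#16 (SE 0.14, adjusted p = 0.0178), which did not pass, and -0.08 with sh#87 (SE 0.14, adjusted p = 0.622). With DESeq2, with upper-quartile normalization and without NT replicate 3 the sh#16 value passed (adjusted p = 0.00768, 0.00518 and 0.00201). The sign of the sh#87 value was not stable, turning positive without NT replicate 3 (0.04) and without sh#87 replicate 3 (0.02).

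HLA-DRB1 lies in a block of near-identical and highly polymorphic copies, so that reads may be divided among them or lost, and its values are uncertain for that reason. Of the other class II loci that were looked up (10 in all), HLA-DRB5 and the pseudogene HLA-DRB6 are in the table. HLA-DRB5 ranged from 1.93 to 5.59 CPM in NT, from 3.46 to 4.61 with sh#16 and from 2.09 to 3.16 with sh#87. Its log2 fold change with both shRNAs was -0.10 (adjusted p = 0.798), and that of HLA-DRB6 was 0.48 (adjusted p = 0.128), with levels of 0.648 to 0.899 CPM in NT and 0.824 to 1.48 CPM in the knockdown libraries. With the copies summed into 1 gene, the count of members called was 0 as before. HLA-DRB1 was far from the fold change threshold of 2 before summing. This count could therefore hardly change, and it does not bear on how reads were divided. The ratio of HLA-DRB5 to HLA-DRB1 counts was 0.177 to 0.369 in NT, 0.209 to 0.247 with sh#16 and 0.187 to 0.253 with sh#87, so the 3 groups overlapped in how counts were divided between the copies.

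The chains of HLA-DP were the lowest members. HLA-DPA1, the alpha chain (chr6:33064569-33080748), stood at 2.49, 1.82 and 2.06 CPM in NT, 1.29, 1.60 and 1.32 CPM with sh#16 and 1.04, 0.985 and 0.865 CPM with sh#87, which corresponds to 42 to 62, 24 to 74 and 17 to 25 counts. No group overlapped with another. It fell with sh#87 (log2 fold change -1.14, SE 0.19, adjusted p = 5.06e-04), while the value with sh#16 was -0.59 (SE 0.18, adjusted p = 0.0167) and the difference between the shRNAs was -0.55 (SE 0.20, adjusted p = 0.0597). With both shRNAs the log2 fold change was -0.83 (SE 0.23, adjusted p = 0.00774). This call was the least secure of the set, since it passed in 9 of 20 alternative settings and was lost when any single library other than sh#16 replicate 2 was left out (adjusted p between 0.0118 and 0.0337).

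HLA-DPB1, the beta chain (chr6:33075990-33089696), had 3.77, 4.50 and 3.20 CPM in NT, 1.25, 1.32 and 1.81 CPM with sh#16 and 1.66, 0.761 and 1.22 CPM with sh#87. Every knockdown library was below every NT library, and the knockdown groups overlapped with each other. HLA-DPB1 fell with sh#16 (log2 fold change -1.41, SE 0.27, adjusted p = 0.00132) and with sh#87 (-1.65, SE 0.28, adjusted p = 5.16e-04), and both calls held in all 20 alternative settings. The shRNAs differed by -0.24 (SE 0.30, adjusted p = 0.573), a value that is not distinguishable from 0 at 17 to 61 counts per knockdown library. The genes HLA-DPA1 (minus strand) and HLA-DPB1 (plus strand) overlap by 4759 bases at chr6:33075990-33080748 in GRCh38.p14. The kit keeps the strand, but the strand setting of the counting is not given in the sources used here, and if strand was not used, reads from the shared bases cannot be assigned to one of them.

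CD74, the invariant chain, encoded on another chromosome (chr5:150401639-150412910), was the most abundant member. It had 380.1, 511.8 and 470.1 CPM in NT, 445.2, 456.2 and 431.6 CPM with sh#16 and 286.7, 258.1 and 269.6 CPM with sh#87. The sh#16 libraries lay within the range of NT, and all sh#87 libraries were below both other groups. The log2 fold change was -0.04 with sh#16 (SE 0.10, adjusted p = 0.765) and -0.75 with sh#87 (SE 0.11, adjusted p = 1.46e-04). A direct test between the shRNAs gave -0.71 (SE 0.11, adjusted p = 0.00144), which passed in 19 of 20 alternative settings, the exception being the one without sh#87 replicate 2. In the fit of both shRNAs as 1 group its value was -0.35 (SE 0.21, adjusted p = 0.162). With the shRNAs averaged in the fit of 3 groups it was -0.39 and passed (adjusted p = 0.00289), in 1 of 20 alternative settings.

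The chains of the peptide editor HLA-DM were higher in all knockdown libraries than in NT. HLA-DMA, the alpha chain (chr6:32948618-32953097), had 30.2, 39.0 and 46.7 CPM in NT, 76.6, 74.5 and 74.4 CPM with sh#16 and 50.8, 48.6 and 50.1 CPM with sh#87. The 3 groups did not overlap, and sh#16 stood highest. HLA-DMA rose with sh#16 (log2 fold change 0.95, SE 0.13, adjusted p = 1.75e-04) to 1.93 times the NT level. With sh#87 the value was 0.36 (SE 0.13, adjusted p = 0.0316), and the shRNAs differed by -0.59 (SE 0.13, adjusted p = 0.00919). That difference was of similar size in all 20 alternative settings (-0.60 to -0.57) but passed in 12 of them. With both shRNAs the log2 fold change was 0.69 (SE 0.20, adjusted p = 0.0111), close to the threshold, and it passed in 10 of 20 settings. One of these was the fit of 3 groups with the shRNAs averaged (0.66, adjusted p = 6.72e-04).

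HLA-DMB, the beta chain (chr6:32934636-32941028), had 18.9, 16.5 and 13.3 CPM in NT, 25.7, 27.1 and 25.3 CPM with sh#16 and 22.4, 20.7 and 21.6 CPM with sh#87. Here too the groups were apart, with NT lowest and sh#16 highest. It rose with sh#16 (log2 fold change 0.68, SE 0.12, adjusted p = 8.27e-04), and the value with sh#87 was 0.41 (SE 0.12, adjusted p = 0.0122). With both shRNAs it was 0.55 (SE 0.14, adjusted p = 0.00444), which was lost without NT replicate 2 (adjusted p = 0.0178) or NT replicate 3 (adjusted p = 0.0196). Within NT the partners ran in opposite order. NT replicate 1, with the largest mitochondrial share, had the lowest HLA-DMA and the highest HLA-DMB. The part of the mitochondrial share in these values was not tested.

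**Figure D2:**
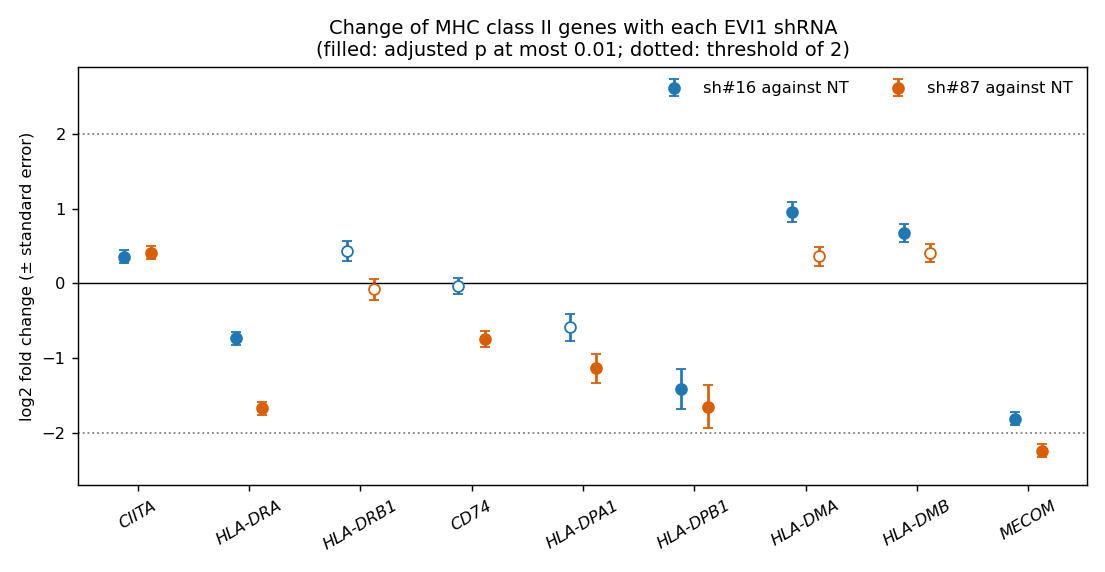
Log2 fold change (vertical axis, ± SE) of the 8 class II genes and MECOM with sh#16 (blue) and sh#87 (orange) against the shared NT libraries, filled where the adjusted p was at most 0.01, with dotted lines at the fold change threshold of 2 in either direction. HLA-DRA, HLA-DPA1 and HLA-DPB1 lie below 0 with both shRNAs, CIITA, HLA-DMA and HLA-DMB above 0 with both, and CD74 lies near 0 with sh#16 (-0.04) and at -0.75 with sh#87.

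Counted by comparison, 3 members rose (CIITA, HLA-DMA, HLA-DMB) and 2 fell (HLA-DRA, HLA-DPB1) with sh#16, where 60% of all genes tested passed (29.8% higher and 30.2% lower). With sh#87, 1 rose (CIITA) and 4 fell (HLA-DRA, HLA-DPA1, HLA-DPB1, CD74), where 67.9% of all genes passed (34.3% higher and 33.6% lower). The median log2 fold change over the 8 members was -0.07 with both shRNAs, 0.16 with sh#16 and -0.41 with sh#87, against 0.05, 0.04 and 0.04 over all genes tested. A median near 0 here is the middle of members that moved apart, since the groups of libraries did not overlap for 3 members that were higher and 3 that were lower with both shRNAs (75% of the members, against 66% of all genes, of which 34.1% were higher and 31.9% lower). The groups were apart for 7 of 8 members with sh#16 and for 7 with sh#87, against 74.3% and 78% of all genes.

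The direct comparison of the shRNAs had the fewest moving genes. Of the 8 members, 3 passed, all lower with sh#87 (HLA-DRA, HLA-DMA and CD74; 37.5%), against 17.7% of all genes tested, 9.42% being lower and 8.29% higher. No member was higher with sh#87 by edgeR's test, and 5 had an unadjusted p below 0.05, against 44.6% of all genes. This fit shares its spread with the NT libraries. With only the sh#16 and sh#87 libraries fitted, HLA-DRB1 (-0.50, adjusted p = 9.79e-04) and HLA-DMB (-0.26, adjusted p = 0.00253) were lower with sh#87 too. These 2 genes passed in 5 and in 2 of 20 alternative settings. The median difference was -0.53 over the members and -0.02 over all genes. Libraries did not overlap for 6 members, each lower with sh#87, where 65.3% of all genes did not overlap and 34.4% did so in that direction. MECOM itself was lower with sh#87 by -0.43 (SE 0.09, adjusted p = 0.00661), a difference that passed in 10 of 20 alternative settings.

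Because the partners of a class II molecule are needed in pairs, their counts were also compared within each library, where the library size cancels. HLA-DRA counts were between 6.76 and 11.4 times those of HLA-DRB1 in NT (median 7.96), between 3.45 and 3.997 times with sh#16 (median 3.84) and between 2.39 and 3.42 times with sh#87 (median 2.72). The 3 groups did not overlap. CD74 counts were between 3.07 and 4.99 times those of HLA-DRA in NT, between 6.53 and 7.07 with sh#16 and between 7.38 and 8.45 with sh#87, again without overlap. HLA-DMA to HLA-DMB varied from 1.60 to 3.52 in NT and thus spanned the narrow ranges of sh#16 (2.75 to 2.98) and sh#87 (2.26 to 2.35). HLA-DPA1 to HLA-DPB1 was 0.404 to 0.659 in NT, 0.727 to 1.21 with sh#16, above all NT libraries, and had a median of 0.708 and a highest value of 1.29 with sh#87, whose libraries overlapped with NT and with sh#16. The ratios are given as a description with no test, and they mix gene lengths, so that a ratio above 1 does not mean more molecules of that chain.

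To compare levels between genes, CPM were divided by the length of 1 canonical transcript in kilobases. In NT the order was CD74 (274.7 CPM per kb), HLA-DRA (88.7), HLA-DMA (35.4), HLA-DMB (12.04), HLA-DRB1 (10.6), CIITA (5.62), HLA-DPA1 (1.25) and HLA-DPB1 (0.958). The ranges of HLA-DMB and HLA-DRB1 overlapped, as did those of HLA-DPA1 and HLA-DPB1, and all other neighbours were apart. With sh#16 HLA-DMA (68.7 CPM per kb) stood above HLA-DRA (53.5), and with sh#87 it did so again (45.6 against 28.0), with no overlap of the ranges. This exchange was the change of rank in the order of the means, and CD74 remained first in each group (268.8 CPM per kb with sh#16 and 164 with sh#87). The ranks of CIITA and HLA-DPB1 rest on long annotated transcripts (16061 and 3991 bases), which may not be the ones expressed.

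The factors that assemble on class II promoters were all in the table, and 4 of 7 fell with both shRNAs while none rose (57.1%). Of all genes tested, 59.8% passed in either direction and 29.7% passed and were lower. RFX5, the DNA-binding subunit of RFX, had 69.4, 75.9 and 77.8 CPM in NT, 37.6, 37.6 and 36.6 CPM with sh#16 and 33.5, 35.9 and 35.7 CPM with sh#87. All knockdown libraries were below all NT libraries (log2 fold change -1.05, SE 0.08, adjusted p = 1.25e-06). The other RFX subunits did not pass, with -0.18 for RFXANK (adjusted p = 0.484) and -0.29 for RFXAP (adjusted p = 0.0414). Of the NF-Y subunits, NFYB (-1.17, adjusted p = 7.02e-05) and NFYC (-1.06, adjusted p = 2.09e-06) fell, and NFYA, which contacts the DNA, had -0.10 (adjusted p = 0.23). CREB1 fell by 0.46 on the log2 scale (adjusted p = 0.00356), a call that was lost in 5 of the alternative settings. Between the shRNAs the 7 factors differed by -0.50 (RFXANK) to 0.07 (RFXAP), and the lowest adjusted p was 0.054, that of NFYB.

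The regulators of CIITA were less uniform. Of 14 looked up, 12 were in the table, IRF4 and IRF8 being not listed. With both shRNAs 4 fell and 0 rose (33.3%, against 59.8% of all genes in either direction and 29.7% lower). SPI1, which encodes the myeloid factor PU.1, was the only regulator past the study's thresholds, with 61.5 to 82.8 CPM in NT, 18.3 to 19.1 with sh#16 and 8.82 to 11.2 with sh#87. Its log2 fold change was -2.40 (SE 0.26, adjusted p = 1.71e-05), and the sh#87 libraries were below the sh#16 libraries (-0.93, adjusted p = 0.00139). IRF2, an interferon regulatory factor that acts on a CIITA promoter, fell (-1.51, adjusted p = 2.58e-05), as did JAK2, a kinase of the interferon-gamma receptor (-0.66, adjusted p = 1.90e-04), and USF1 (-0.46, adjusted p = 0.0011). Other members of the interferon-gamma route did not pass with both shRNAs, with values of 0.10 for the receptor chain IFNGR1, -0.47 for IFNGR2 (adjusted p = 0.011), -0.01 for JAK1, 0.02 for IRF1 and 0.36 for SOCS1, an inhibitor of the route. PRDM1, a repressor of CIITA, had -0.29, and EZH2, a histone methyltransferase, had -0.18. The values of SOCS1 and EZH2 depended on NT replicate 3, without which they passed (0.81, adjusted p = 7.29e-04, and -0.37, adjusted p = 0.00317). With sh#16 alone, IFNGR1 rose (0.30, adjusted p = 0.00495).

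In the endosomal and surface lists, the protease gene CTSS carried the largest change. CTSS, which encodes cathepsin S, the protease that trims CD74 in professional antigen-presenting cells, had 40.2 to 46.3 CPM in NT, 6.92 to 7.67 with sh#16 and 3.61 to 4.57 with sh#87. It was the other pathway gene past the study's thresholds (log2 fold change -2.92, SE 0.24, adjusted p = 2.56e-06), so that 2 of 44 pathway genes were called, both lower, where 5.66% of all genes were called lower. Of the 8 endosomal genes in the table, 3 fell (CTSS, CTSZ with -1.86 and SPPL2A, a protease that degrades CD74 fragments, with -0.85) and 1 rose (IFI30, a thiol reductase of the antigen processing route, with 1.73). The other 4 did not pass with both shRNAs, among them the protease genes CTSB, CTSD and CTSH. CTSH had 34.7 CPM in NT, 53.0 with sh#16 and 28.2 with sh#87. With sh#16 alone, 2 endosomal genes rose and 3 fell (62.5%, against 60% of all genes). With sh#87 alone, 1 rose and 5 fell (75%, against 67.9%). Between the shRNAs 5 of 8 were lower with sh#87 (62.5%, against 17.7% of all genes in either direction and 9.42% lower). IFI30 and the other genes below the study's thresholds in this list and in the lists that follow are named after their values were seen. Among 6 genes of surface turnover, CD9 rose (0.68) and CD63 (-0.93) and CD37 (-1.23) fell. Among 9 costimulatory genes and class II ligands, CD40 (1.06) and LAG3 (1.27) rose, and CD4 (-1.23) and CD44 (-1.01) fell. Over all 44 genes, 4 rose and 15 fell (43.2%, against 59.8% of all genes tested), and the median log2 fold change was -0.22.

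**Figure D3:**
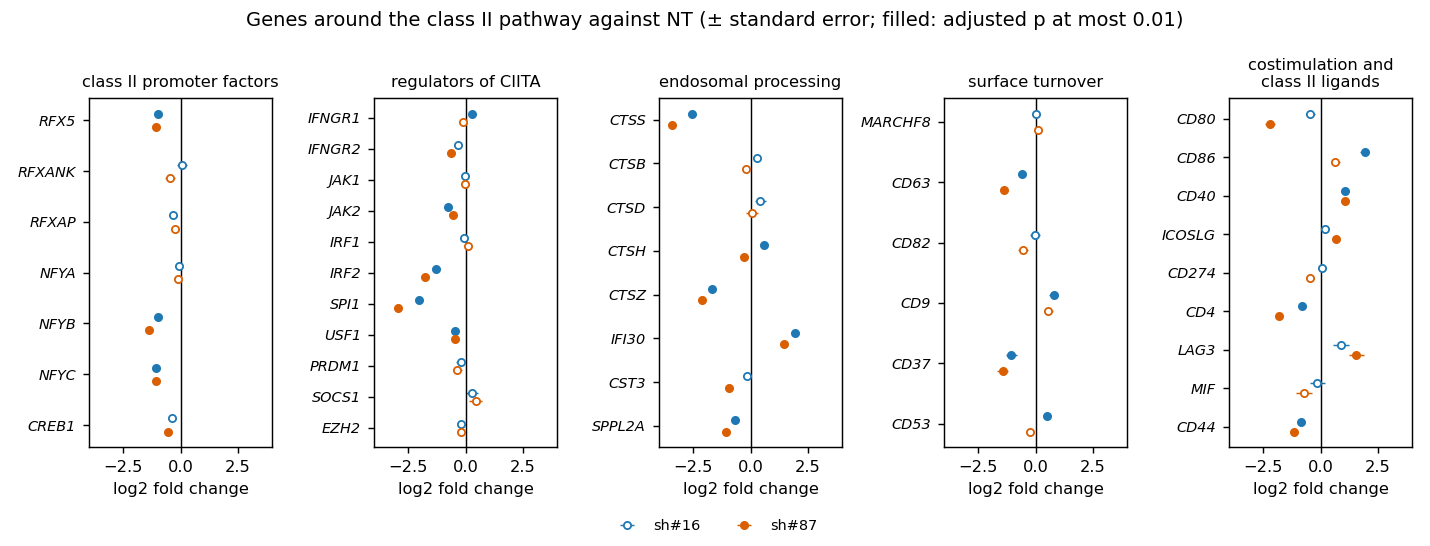
Log2 fold change (horizontal axes, ± SE) with sh#16 (blue) and sh#87 (orange) against NT for named genes around the class II pathway in 5 lists, filled where the adjusted p was at most 0.01. SPI1 and CTSS lie farthest to the left, RFX5, NFYB and NFYC lie near -1 with both shRNAs, and IFI30 lies above 1 with both.

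Markers of other cell types that present antigen were read beside the class II genes. For B cells 4 of 7 markers were in the table (MS4A1, CD79B and CR2 are not listed). Their summed level was 100.7 to 104.3 CPM in NT, 9.12 to 10.04 with sh#16 and 4.731 to 5.329 with sh#87. For dendritic cells 4 of 8 markers gave 33.98 to 38.94, 18.62 to 20.28 and 9.666 to 10.12 CPM in the same order, and for monocytes and macrophages 5 of 8, with CD14 not listed, gave 31.37 to 31.69, 26.04 to 30.09 and 17.2 to 17.45 CPM. The T and NK cell markers, 2 of 5, summed to 10.19 to 11.85, 6.186 to 7.109 and 3.714 to 4.523 CPM. These sums, and those of the progenitor markers given above, had the same order of groups as HLA-DRA and HLA-DPA1 (NT, then sh#16, then sh#87), and a different order from CIITA, HLA-DMA and HLA-DMB. The progenitor sum includes MECOM, the target of the shRNAs, and so holds part of the knockdown itself. The part of these markers in the class II values was not tested.

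The pattern of HLA-DRA over the 9 libraries was compared with that of 11119 genes with at least 5 CPM, using the root mean square distance of centred log2 CPM. The nearest genes were LAPTM5, a lysosomal membrane protein of blood cells, with a distance of 0.0629, SIGLEC6, a sialic acid receptor, with 0.0935, SETD7, a lysine methyltransferase, with 0.106, TAFA2 with 0.107 and SLC27A2, a fatty acid transporter, with 0.109. LAPTM5 fell from 478 ± 23.9 CPM in NT to 285 ± 4.43 with sh#16 and 148 ± 2.04 with sh#87. SIGLEC6 fell from 67.9 ± 3.20 to 40.4 ± 0.974 and 20.1 ± 1.27 CPM. The members were left out of this ranking, and the mean levels of HLA-DRB5 and HLA-DRB6 lie below 5 CPM. No class II locus looked up here could therefore be among the 5. Among the members, HLA-DPA1 was nearest to HLA-DRA (0.283), followed by HLA-DPB1 (0.428), CD74 (0.436), HLA-DRB1 (0.710), CIITA (0.865), HLA-DMB (0.873) and HLA-DMA (0.922). These distances describe 9 libraries in 3 groups and carry no test.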

How the data were processed

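RNA of HNT34 cells was sequenced as polyA-selected, strand-specific libraries with single reads. The authors deposited a table of estimated counts, not normalized, with genes by symbol and all 9 libraries in columns. Its header points to salmon output, whereas the methods name STAR gene counts on GRCh38 with ENSEMBL annotation, and it is shifted left by 1 column, so its names were assigned to the value columns in order. All values were whole numbers. Groups were taken from sample titles. A label field gives 18 for the shRNA of the sh#87 libraries.

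The counts were analysed in R 4.3.3 with edgeR 4.0.16 (TMM, filterByExpr, quasi-likelihood test, Benjamini-Hochberg adjustment over 16312 genes). Both shRNAs against NT used a fit of 2 groups, and other comparisons a fit of 3 groups. CPM are TMM-normalized, and log2 CPM used a prior count of 2. DESeq2 1.42.0, limma-voom (limma 3.58.1), RLE and upper-quartile normalization, other filters and thresholds, a replicate block, other groupings, summed near-identical copies, removed mitochondrial genes and each library left out were alternatives. A limma-voom fit with a weight per group was added after the data had been seen. On simulated counts of 15996 genes for both shRNAs against NT, all 99 genes tested with a log2 fold change of 3 were called, and 58.3% of those with 1 passed the adjusted p, with 0 false calls. Of the genes without change, 1 was called with sh#16 against NT, 0 with sh#87 against NT and 1 between the shRNAs. The simulation gave all groups the same spread, unlike the data, so it does not measure false calls at the wider NT spread.

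Named genes are the 10 members, MECOM, all genes in the table from the lists of other class II loci, promoter factors and CIITA regulators, those of other lists past the study's thresholds, and the 5 genes nearest to HLA-DRA. The value of 1 listed CIITA regulator is not reported here. The members and lists were chosen with earlier results of these data known. Lengths came from 1 canonical GENCODE transcript per gene, and promoters and gene positions from RefSeq GRCh38.p14, whose promoter table holds 8 of the 10 members and was searched without HLA-DRA and CIITA. Same-numbered replicates were not treated as pairs in the main fits.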

Additional observations from a re-analysis of the deposited data

Results flagged for a closer look

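The shRNAs differed from each other, in the direct test within the fit of 3 groups, for 4 of the 9 genes examined (the 8 members in the table and MECOM). HLA-DRA was lower with sh#87 than with sh#16 by a log2 difference of -0.93 (adjusted p = 1.83e-04), and all 3 sh#87 libraries were below all 3 sh#16 libraries. For CD74 the log2 difference was -0.71 (adjusted p = 0.00144), and for HLA-DMA it was -0.59 (adjusted p = 0.00919), each with all 3 sh#87 libraries lower. MECOM, the targeted gene, was lower with sh#87 by a log2 difference of -0.43 (adjusted p = 0.00661). The libraries held 17096170 to 43502389 counts with sh#16 and 18310242 to 22758610 with sh#87, which overlap, while the mitochondrial share (2.69% to 2.88% against 4.62% to 5.97%) did not. The part of either in the differences was not tested.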

How the results depend on the processing

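The counts of members called at the study's thresholds depended on the fold change required. At a log2 fold change of 1 or more, 2 members were called for both shRNAs, 1 for sh#16 and 3 for sh#87. Without any fold change threshold, the counts were 5 for both shRNAs, 5 for sh#16, 5 for sh#87 and 3 for the direct comparison of the hairpins. For the other pathway genes the counts with both shRNAs were 13 and 19 in these settings, against 2. All remaining settings, the left-out libraries included, gave 0 members in each comparison.

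Values near 0 changed sign. With upper-quartile normalization, which moved the median of all genes with both shRNAs from 0.05 to 0.16, HLA-DRB1 with sh#87 had 0.0435, CD74 with sh#16 had 0.0690, and with both shRNAs HLA-DRB5 had 0.0141, NFYA 0.00760 and JAK1 0.0975. With a weight per group, HLA-DRB5 had 0.159 and IRF1 -0.0440. Leaving out 1 library gave -0.196 to 0.0365 for HLA-DRB1 with sh#87 (0.0365 without NT replicate 3 and 0.0203 without sh#87 replicate 3), -0.543 to 0.0134 (without sh#87 replicate 2) for HLA-DPB1 between the shRNAs and -0.166 to 0.0576 (without NT replicate 2) for CD74 with sh#16. With both shRNAs the ranges were -0.410 to 0.359 for HLA-DRB5 (0.00891 without sh#87 replicate 3), -0.411 to 0.117 for RFXANK, -0.0609 to 0.0188 for JAK1 (0.00024 without sh#87 replicate 2) and -0.0497 to 0.111 for IRF1 (-0.0182 without NT replicate 2). The cause was not tested, and none of these values had passed. Over all alternatives to the values of single members, 577 kept their direction and side of the threshold, 25 newly passed, 32 no longer passed and 6 changed sign. Among the members' calls, HLA-DPA1 with both shRNAs passed in 9 of 20 alternatives, HLA-DMA between the shRNAs in 12 and CIITA with sh#16 in 15, and MECOM between the shRNAs passed in 10.

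Replicate numbers are shared by the groups, but deviations of same-numbered libraries correlated only between -0.139 and 0.0780 over 9 pairs. Low correlations cannot decide whether same-numbered libraries were prepared together, which the labels do not say. With the replicate block, 0 members were called in each comparison, as before. At the adjusted p alone, HLA-DPA1 with both shRNAs (-0.84, adjusted p = 0.0215) and HLA-DMA between the shRNAs (-0.59, adjusted p = 0.0189) did not pass under the block. Depth limits the HLA-DP genes most, with 17 to 104 counts per library, and counting error alone is large there.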
